A study of Mus musculus with 28 samples.

Results

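The Gimap family was described across newborn mouse lungs that lacked HRas, NRas or both. The 8 members measured were Gimap1, Gimap3, Gimap4, Gimap5, Gimap6, Gimap7, Gimap8 and Gimap9, of 22180 genes in all. Each was taken as the brightest probe set that carried its symbol alone. Gimap1 had 2 such probe sets and the other members 1 each. The family was chosen with the readout in view, because Gimap4 was lower than an additive sum in the untreated double knockout and higher there with N-acetyl cysteine. Those values are therefore given below as a description and carry no test. Comparisons of untreated DKO with the other untreated groups use the same arrays. Calls of Gimap4 in them are likewise only described.

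Whole lungs were collected on postnatal day 0, and each of 28 arrays held total RNA of 1 animal. The untreated groups were Control (3 arrays), HRas-KO (3), NRas-KO (3) and the double knockout DKO (5). The same genotypes made up the NAC arm, with 4, 3, 3 and 4 arrays, whose mothers received 0.5% N-acetyl cysteine (NAC, an antioxidant) through pregnancy. The labels do not say how the knockouts were made, what alleles the Control animals carried, or the strain. The question was how loss of these Ras GTPases alters lung expression, and whether antenatal NAC alters that.

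GIMAP proteins (GTPases of immunity-associated proteins) are small membrane-associated GTPases with a septin-like nucleotide-binding domain. They are best known from lymphocytes, where several of them govern whether T and B cells survive, and some are also expressed by endothelial cells. Their genes lie side by side in 1 cluster. HRas and NRas belong to the separate Ras family of GTPases, which relay signals from growth factor receptors.

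The mouse cluster spanned chr6:48647186-48770851 of GRCm38.p6, a stretch of 123.67 kb, per the RefSeq gene table. Along the chromosome the order was Gimap8, Gimap9, Gimap4, Gimap6, Gimap7, Gimap1, Gimap5 and Gimap3. Gimap6 and Gimap3 lie on the minus strand and the other members on the plus strand. Gimap4 (probe set 17458362) occupied chr6:48684578-48692062, and Gimap6 (probe set 17466606) chr6:48701583-48708244. Gimap8 (probe set 17458345) occupied chr6:48647186-48660875.

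The 250 bases before the RefSeq start are shown for Gimap4 and Gimap6, since these were the members whose levels differed most between groups. Each is written from 5′ to 3′ along the gene's own strand, from RefSeq on GRCm38.p6. Capitals mark motif matches on either strand, which do not overlap in these windows. In Gimap4 they mark AGGAAG, 1 form of the site read by ETS factors, at 2 places and TGTGGT, the core read by RUNX factors, at 1 place. In Gimap6 they mark 1 match to the TATA box TATAAA. Other forms of the ETS site, such as CGGAAG in the Gimap6 window, were not searched and are not marked.
Gimap4 (chr6:48684328-48684577, plus strand): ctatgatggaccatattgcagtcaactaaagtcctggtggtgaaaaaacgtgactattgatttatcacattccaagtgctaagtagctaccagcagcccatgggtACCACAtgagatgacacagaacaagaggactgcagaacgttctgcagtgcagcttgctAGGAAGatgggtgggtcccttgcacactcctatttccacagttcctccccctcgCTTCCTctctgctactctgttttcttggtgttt
Gimap6 (chr6:48708245-48708494, minus strand): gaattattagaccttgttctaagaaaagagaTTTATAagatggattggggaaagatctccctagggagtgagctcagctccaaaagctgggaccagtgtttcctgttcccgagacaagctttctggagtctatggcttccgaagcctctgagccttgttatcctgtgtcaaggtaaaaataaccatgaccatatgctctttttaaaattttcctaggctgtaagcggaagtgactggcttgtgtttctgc

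RefSeq listed 9 starts for the 8 members, 2 of them for Gimap8 with windows that overlap. AGGAAG occurred in 7 of these 9 windows, against 29.5% of 32851 windows of the same length in the RefSeq promoter table. TGTGGT occurred in 3 of 9 windows, those of Gimap4, Gimap7 and Gimap1, against 14% of all windows. AGATAA, 1 form of the site read by GATA factors (9.99% of all windows), and the interferon response element (2.98%) were in none of the 9. TATAAA was in 1 of 9, against 12.4% of all windows. A match describes letters only and is not a bound site.

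Values are the deposited log2 values, differences are log2 differences, n counts animals, and adjusted p-values come from limma over all 22180 genes with Benjamini-Hochberg adjustment. A gene was called at an adjusted p under 0.05. Array medians lay between 5.25 and 5.41. The lung label was borne out by the surfactant gene Sftpc at a mean log2 level of 13.11 and the endothelial cadherin gene Cdh5 at 11.65, where single values ran from 2.28 to 13.55. The pan-leukocyte gene Ptprc had a mean of 7.11, and the T cell receptor gene Cd3e a mean of 4.68. The targeted gene Nras lay at 8.07 or above on Control and HRas-KO arrays and at 7.40 to 7.80 on NRas-KO and DKO arrays, except for the array labelled DKO+NAC replicate 4, at 8.08. Hras was not analysed here, so labels of HRas-KO were not checked.

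Gimap4 is best known for altering how fast T cells die after a death stimulus. Its log2 values were 7.94, 7.62 and 7.74 in Control, 7.86, 7.88 and 7.69 in HRas-KO and 7.71, 8.05 and 8.13 in NRas-KO. In untreated DKO lungs they were 6.97, 7.18, 6.31, 6.71 and 6.40. All 5 DKO values lay below every one of the other 23 arrays, of which the lowest was 7.29.

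With NAC, Gimap4 read 7.86, 7.86, 7.88 and 7.63 in Control and 7.54, 7.59 and 7.83 in HRas-KO. It read 8.37, 8.14 and 7.62 in NRas-KO and 8.10, 8.07, 8.08 and 7.29 in DKO. The value of 7.29 came from the array labelled DKO+NAC replicate 4, the same array on which Nras was high. The DKO+NAC values overlapped those of each other group except untreated DKO.

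In order of group means, Gimap4 stood at 6.71 ± 0.37 (SD, n = 5) in DKO, 7.65 ± 0.16 (n = 3) in HRas-KO+NAC and 7.76 ± 0.16 (n = 3) in Control. HRas-KO followed at 7.81 ± 0.11 (n = 3), Control+NAC at 7.81 ± 0.12 (n = 4) and DKO+NAC at 7.88 ± 0.40 (n = 4). NRas-KO at 7.96 ± 0.22 (n = 3) and NRas-KO+NAC at 8.05 ± 0.38 (n = 3) were the highest. From HRas-KO+NAC upward, each group overlapped its neighbours in this order, and only the step up from DKO had none.

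**Figure D1:**
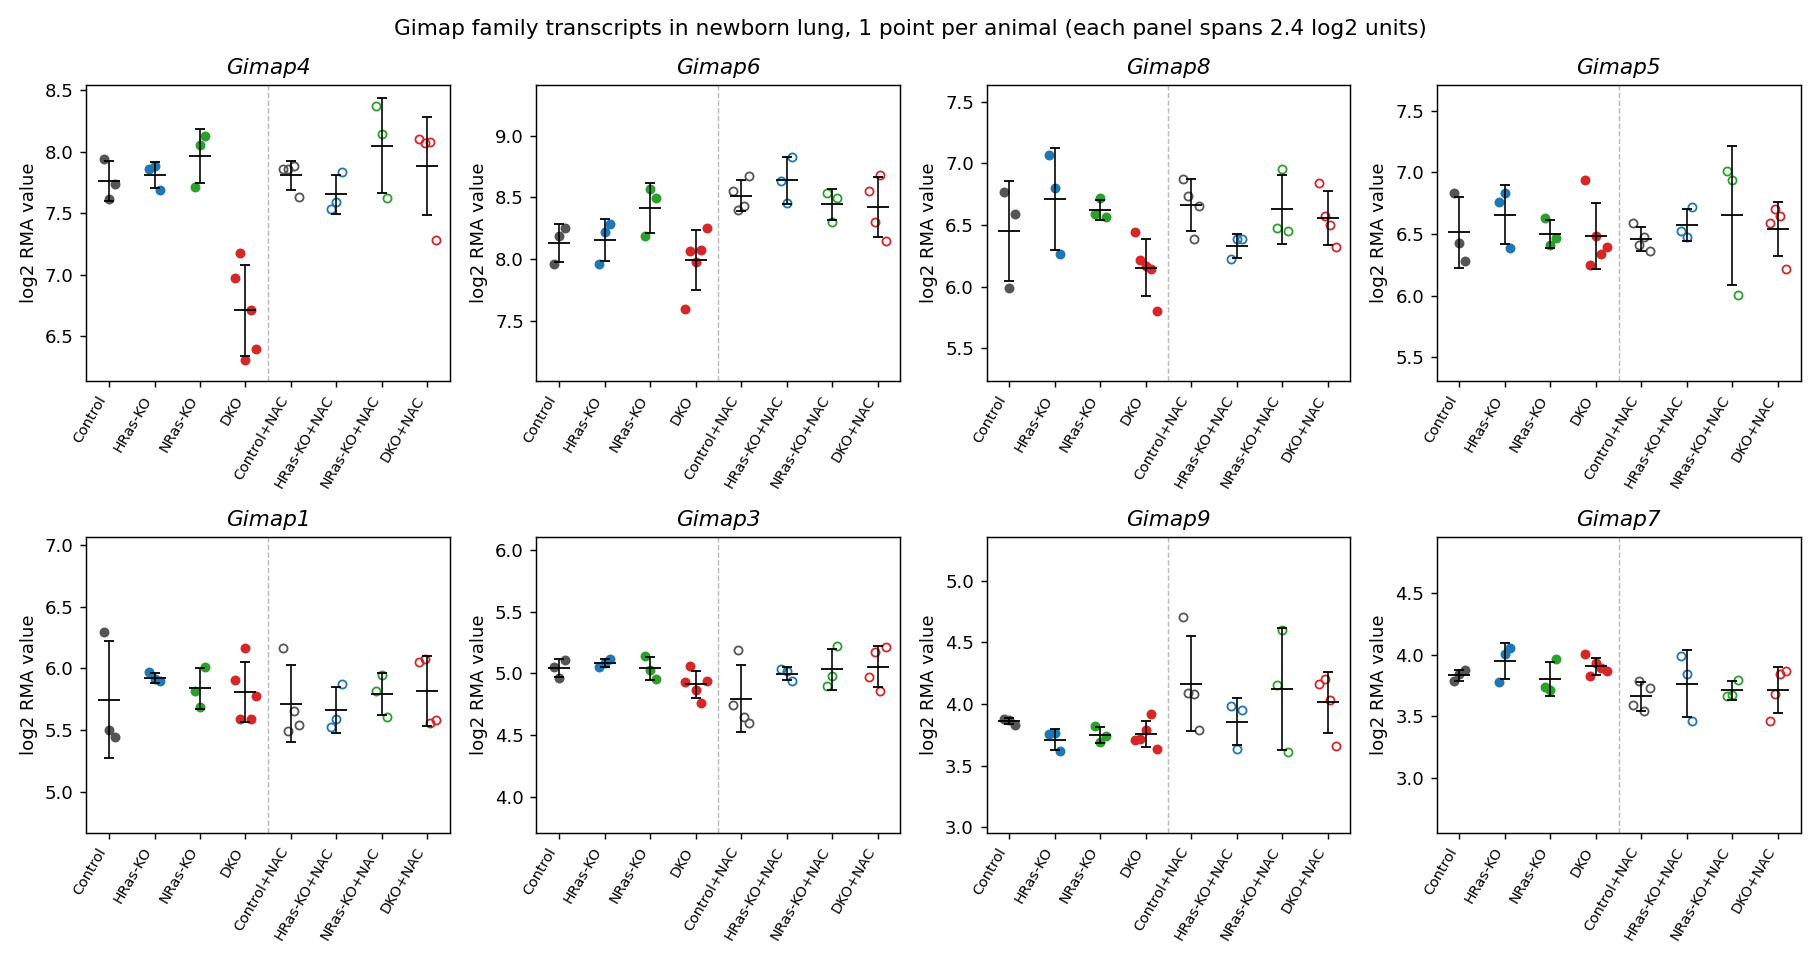
Log2 RMA value of each Gimap member (y axis) in the 8 groups (x axis), 1 point per animal, with filled points for untreated and open points for NAC groups, and bars for mean and SD. Each panel spans 2.4 log2 units. Gimap4 is at 6.31 to 7.18 in untreated DKO and at 7.29 or above on all other arrays, while untreated DKO values of the other 7 members overlap those of Control.

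Against Control, Gimap4 was lower in DKO by a log2 difference of -1.05 ± 0.19 (SE), a 2.07-fold lower level. The difference was -1.09 ± 0.19 against HRas-KO (2.14-fold) and -1.25 ± 0.19 against NRas-KO (2.38-fold). These 3 comparisons share the DKO arrays on which Gimap4 was chosen. The non-additive difference, which is the DKO difference from Control less the sum of both single-knockout differences, was -1.30 ± 0.28. In bulk lung, fewer cells that express a gene and less RNA per cell cannot be told apart.

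Among the 8 members, Gimap4 alone was called in DKO against Control, where 3.83% of all genes were called, 1.35% of all genes lower. The same held against HRas-KO (background 5.63%, or 2.32% lower) and against NRas-KO (4.95%, or 1.75% lower). Because Gimap4 was chosen on these arrays, nothing is read from those counts. Over all genes, 550 were called higher and 300 lower in DKO against Control, and 458 higher and 383 lower after quantile normalization was applied again.

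Gimap5, Gimap3 and Gimap1 were not called in DKO against Control, where 3.83% of all genes were called. Gimap5, whose loss causes lymphopenia in rodents, differed from Control by -0.03 ± 0.18 (adjusted p = 0.97, 95% interval -0.40 to 0.34). Gimap3, which is closely related to Gimap5, differed by -0.13 ± 0.11 (adjusted p = 0.65). Gimap1, which is needed for mature T and B cells, differed by 0.06 ± 0.18 (adjusted p = 0.93, interval -0.31 to 0.43).

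Gimap5 read 6.83, 6.43 and 6.28 in Control and 6.94, 6.25, 6.49, 6.34 and 6.39 in DKO, so the groups overlapped. Over all 28 arrays Gimap1 ranged from 5.44 to 6.29 and Gimap3 from 4.60 to 5.22. Both spans include the DKO values of 5.59 to 6.17 for Gimap1 and 4.76 to 5.06 for Gimap3. Every pair of untreated groups overlapped for both genes.

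Gimap8, a large member with repeated GTPase domains, was the next lowest in DKO. Its log2 values were 6.77, 5.99 and 6.59 in Control, 7.07, 6.80 and 6.26 in HRas-KO, 6.58, 6.71 and 6.56 in NRas-KO, and 6.44, 6.22, 6.17, 6.14 and 5.80 in DKO. The DKO values lay below all NRas-KO values but overlapped those of Control and HRas-KO.

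The Gimap8 difference was -0.30 ± 0.18 from Control (adjusted p = 0.46), -0.56 ± 0.18 from HRas-KO (adjusted p = 0.062) and -0.47 ± 0.18 from NRas-KO (adjusted p = 0.14). None was called. Against HRas-KO it was called without the dimmest 40% of genes, with array weights, and without Control replicate 2, HRas-KO replicate 3 or DKO replicate 1. The adjusted p for this difference ran from 0.012 to 0.37 over the alternatives.

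Gimap6, which binds an ATG8-family protein of the autophagy machinery, read 7.96, 8.18 and 8.25 in Control and 7.60, 8.06, 7.98, 8.07 and 8.25 in DKO. It differed by -0.14 ± 0.14 (adjusted p = 0.71, interval -0.42 to 0.14). In NRas-KO it read 8.19, 8.57 and 8.50, and the DKO difference from that group was -0.43 ± 0.14 (adjusted p = 0.071). That difference was called without DKO replicate 5 (-0.49, adjusted p = 0.048).

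Gimap7 and Gimap9 gave low readings on these arrays. Gimap7 differed from Control by 0.07 ± 0.11 in DKO (adjusted p = 0.84) and Gimap9 by -0.11 ± 0.17 (adjusted p = 0.86). Over all 28 arrays Gimap7 ranged from 3.46 to 4.05. Untreated Gimap9 values ran from 3.62 to 3.92. Those of HRas-KO and NRas-KO lay below all 3 Control values, with differences of -0.15 ± 0.19 and -0.11 ± 0.19 that were not called. Over the 8 members, 2 differences from Control were positive and 6 negative, with a median of -0.12 against 0.02 over all genes.

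Single knockouts showed no called member, and limma called 0% of all genes in HRas-KO against Control and 0% in NRas-KO against Control. No member reached an unadjusted p under 0.05 in either, while 190 genes of all did in HRas-KO. Differences of members from Control lay between -0.15 and 0.26 in HRas-KO and between -0.11 and 0.29 in NRas-KO. Gimap4 itself differed by 0.04 ± 0.21 in HRas-KO (interval -0.39 to 0.48) and by 0.20 ± 0.21 in NRas-KO (interval -0.23 to 0.64).

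**Figure D2:**
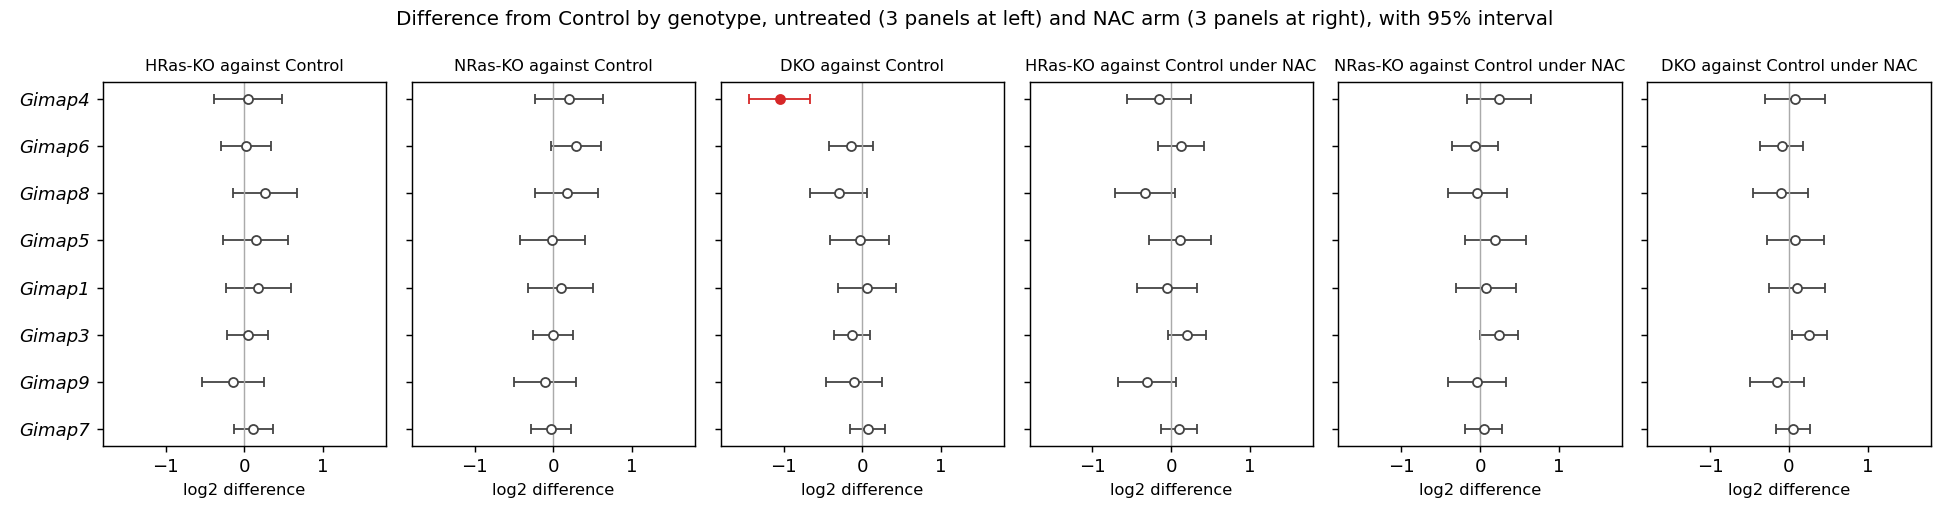
Log2 difference from Control (x axis) of each member (y axis) for the 3 knockout genotypes, untreated and in the NAC arm, with 95% intervals from limma. The filled point marks the one called difference, Gimap4 in untreated DKO at -1.05, which was chosen on these arrays. Under NAC the Gimap4 difference in DKO is 0.08.

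Neighbouring genes of the cluster were set beside the members. Within 150 kb of the cluster 11 other genes were measured. In DKO against Control 1 of them was called, Aoc1, a diamine oxidase gene, at 0.38 ± 0.11 (adjusted p = 0.049). The share of all genes called there was 3.83%. The genes on either side of Gimap4 along the chromosome, Gimap9 and Gimap6, are members whose differences of -0.11 and -0.14 were not called.

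A wider list of supposed neighbours had 17 measured genes, but only 9 of them lie on mouse chromosome 6. That list was not used further. Tmem176b, which lies just beyond Gimap3, differed by -0.44 ± 0.14 in DKO (adjusted p = 0.074).

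**Figure D3:**
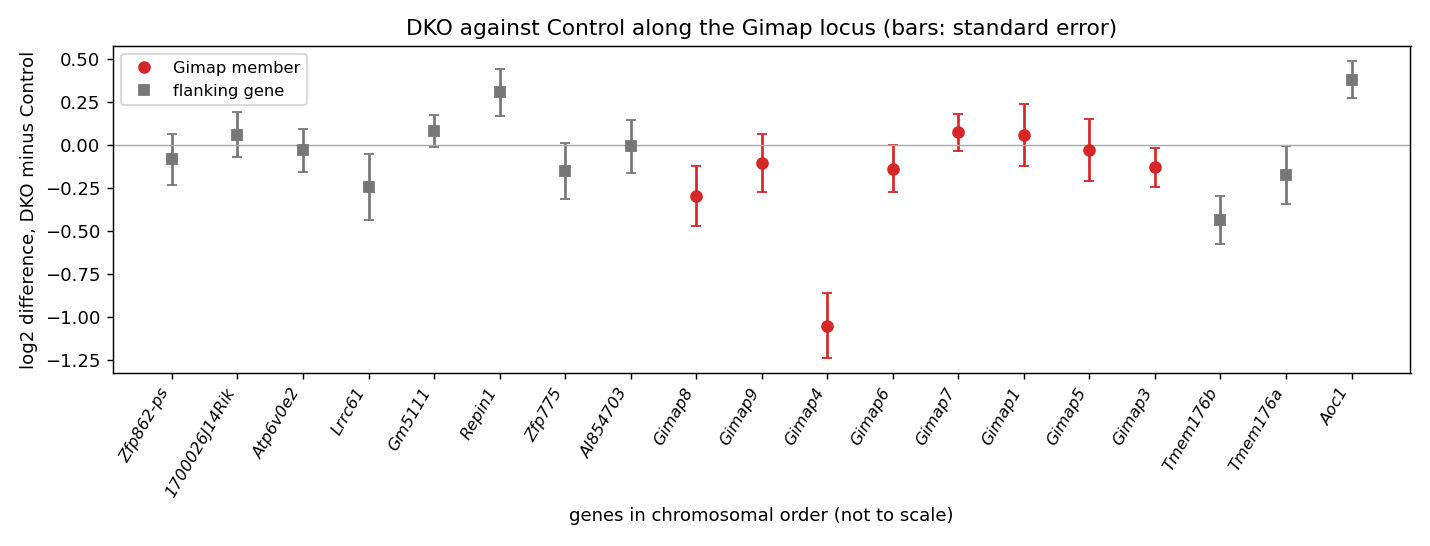
Log2 difference of DKO from Control (y axis) for Gimap members and flanking genes in chromosomal order (x axis, not to scale), with bars for the standard error. Gimap4 is at -1.05, its neighbours Gimap9 and Gimap6 at -0.11 and -0.14, and Aoc1 at 0.38.

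The start of the animal code in each title may stand for a litter or collection, which the labels do not state. Untreated DKO animals carried starts (G185, G186 and H797) that no other group carried. Genotype and code start therefore cannot be told apart for DKO in the untreated arm. Within DKO, the 3 animals of G185 read 6.31 to 7.18 for Gimap4, the animal of G186 read 6.71 and that of H797 read 6.40. All 3 starts held untreated DKO animals only, so these values do not separate code start from genotype.

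**Figure D4:**
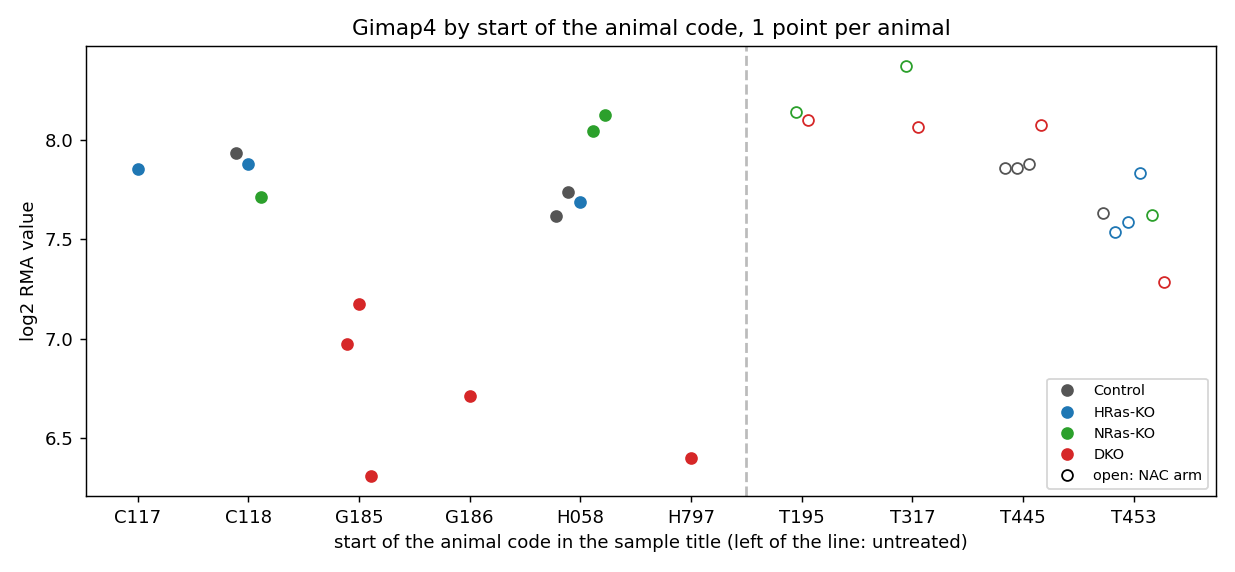
Gimap4 log2 RMA value (y axis) by the start of the animal code (x axis), 1 point per animal, coloured by genotype and open for the NAC arm. All 5 points under G185, G186 and H797 are untreated DKO and lie at or below 7.18. The 6 NAC animals of T453 lie between 7.29 and 7.83, and the other 8 NAC animals between 7.86 and 8.37.

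Other differences accompanied the DKO group, and their part in the Gimap4 values was not tested. The mean of 7 small structural RNAs, as deviation from each gene's mean over all arrays, was 0.59 ± 0.43 (SD, n = 5) in DKO and -0.15 ± 0.24 (n = 3) in Control, without overlap. The mean of 12 skeletal muscle genes was 0.46 ± 0.65 in DKO and 0.14 ± 0.43 in Control. The mean of 10 alveolar type 2 genes was -0.11 ± 0.10 in DKO and 0.11 ± 0.08 in Control.

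The mean of 5 erythroid genes was 0.42 ± 0.30 (SD, n = 5) in DKO, from 0.14 to 0.83, and -0.10 ± 0.24 (n = 3) in Control, from -0.24 to 0.18. In DKO+NAC it ran from -0.13 to 0.05, below each untreated DKO array. Of these genes 1 was called higher in DKO against Control, the embryonic globin gene Hbb-y at 1.15 ± 0.28 (adjusted p = 0.019). The share of all genes called there was 3.83%. The small structural RNA mean was 0.07 ± 0.19 (SD, n = 4) in DKO+NAC.

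The 5 arrays with the highest skeletal muscle mean were DKO replicates 1, 3 and 5, NRas-KO replicate 2 and Control replicate 3. Without them, Gimap4 differed by -0.83 ± 0.25 between DKO and Control and was not called. It differed by -0.98 ± 0.25 from NRas-KO, also not called, and by -0.86 ± 0.22 from HRas-KO. Leaving out any 1 array gave differences from Control between -1.17 and -0.95. Gimap4 was chosen on these arrays, so nothing is read from a call kept or lost here.

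Cell type genes were counted in DKO against Control, where 3.83% of all genes were called, 1.35% of all genes lower. In lists this short, 1 called gene is near that share and is not read as a result about the list. Of 17 T cell genes, 1 was called lower, the adaptor gene Lat at -0.39 ± 0.11 (adjusted p = 0.034), and none higher, with a list median of -0.09. The list mean ran from -0.09 to 0.01 on DKO arrays and from 0.01 to 0.06 on Control arrays. None of 12 B cell genes was called, and 1 of 13 NK cell genes was lower, the perforin gene Prf1 at -0.38 ± 0.10 (adjusted p = 0.033).

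Of 10 pan-leukocyte genes 1 was called lower, Cd52, a small surface glycoprotein of leukocytes, at -0.67 ± 0.16 (adjusted p = 0.020). The list mean was -0.14 ± 0.16 (SD, n = 5) in DKO, from -0.37 to 0.05, and 0.09 ± 0.08 (n = 3) in Control, from 0.04 to 0.18. These ranges overlapped. None of 12 macrophage genes and none of 12 neutrophil genes was called.

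Blood endothelial genes moved both ways, with 3 higher and 4 lower of 26 in DKO, where 3.83% of all genes were called. Kdr, the main VEGF receptor of endothelium, fell by 0.95 on the log2 scale (SE 0.15, adjusted p = 5.0e-04), and Plvap, which forms the diaphragms of fenestrae, fell by 0.71 (SE 0.16, adjusted p = 0.012). The angiopoietin receptor Tek rose by 0.62 (SE 0.14, adjusted p = 0.010), and the apelin receptor Aplnr rose by 0.79 (SE 0.19, adjusted p = 0.019). Cdh5 averaged 11.86 in Control and 11.79 in DKO, and Pecam1 averaged 10.99 and 10.89.

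Further lists were counted in the same comparison, where 3.83% of all genes were called, 1.35% of all genes lower. Whether their genes act on Gimap genes was not tested. Of 17 leukocyte and endothelial transcription factors 3 were lower in DKO and none higher. Gata2 fell by 0.86 (SE 0.14, adjusted p = 0.0010), and the ETS factors Erg and Ets1 fell by 0.57 (SE 0.14, adjusted p = 0.022) and 0.51 (SE 0.14, adjusted p = 0.042). None of 14 BCL2-family genes and none of 13 genes of naive lymphocyte survival was called. Of 17 autophagy genes, the protease gene Atg4b was higher at 0.58 ± 0.10 (adjusted p = 0.0016) and Tecpr1 lower at -0.44 ± 0.12 (adjusted p = 0.031).

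Some other immune GTPase genes were lower in DKO. Of 15 interferon-inducible or septin-like GTPase genes 3 were called lower and none higher, with a list median of -0.29 against 0.02 over all genes. The share of all genes called lower was 1.35%. Iigp1, a GTPase against intracellular pathogens, averaged 8.08 in Control, 6.62 in DKO and 7.86 in DKO+NAC, and its DKO difference from Control was -1.47 ± 0.29 (adjusted p = 0.0050). Mx2 differed by -0.997 ± 0.19 (adjusted p = 0.0030) and Gbp3 by -0.81 ± 0.20 (adjusted p = 0.022).

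Within the NAC arm no member was called in any genotype comparison, and limma called 0% of all genes in each of HRas-KO, NRas-KO and DKO against Control, DKO against HRas-KO and DKO against NRas-KO. Those comparisons that involve DKO use the DKO+NAC arrays that the choice of Gimap4 also used. Gimap4 differed between DKO and Control under NAC by 0.08 ± 0.18 (adjusted p = 0.92, interval -0.30 to 0.45). Without the array labelled DKO+NAC replicate 4, the Gimap4 means differed by 0.27.

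Animal code starts were shared between genotypes in the NAC arm, which allowed them to be fitted as a fixed block. With that block the Gimap4 difference between DKO and Control was -0.01 ± 0.18. The non-additive difference under NAC was -0.01 ± 0.28 for Gimap4 without the block and -0.36 ± 0.29 with it, and it was called for 0 of 8 members and 0% of all genes. No member had an unadjusted p under 0.05 for it.

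Gimap3 had the smallest unadjusted p of the NAC-arm comparisons, 0.025 for DKO against Control, at 0.26 ± 0.11 (adjusted p = 0.45). Its values were 4.74, 5.19, 4.65 and 4.60 in Control+NAC and 4.97, 5.17, 4.86 and 5.21 in DKO+NAC. The groups overlapped, with Control+NAC replicate 2 above the other 3 Control+NAC arrays.

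NAC was compared with no treatment within each genotype. No code start occurs in both arms, so NAC and code start cannot be told apart in any of these comparisons. In DKO, Gimap4 was higher with NAC by 1.17 ± 0.17, or 2.25-fold, and by 1.37 without the array labelled DKO+NAC replicate 4. This value was part of the choice of Gimap4. In that comparison 12.2% of all genes were called, and nothing is read from it.

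In the other genotypes the NAC difference of Gimap4 was 0.04 ± 0.20 in Control (interval -0.36 to 0.45), -0.15 ± 0.21 in HRas-KO (interval -0.59 to 0.28) and 0.08 ± 0.21 in NRas-KO (interval -0.35 to 0.52). None was called. The NAC difference in DKO less that in Control was 1.13 ± 0.26, again as a description, where 0.388% of all genes were called. For the untreated non-additive difference the share of all genes called was 0.225%.

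Gimap6 was the only member called with NAC outside DKO. In HRas-KO its log2 values were 7.96, 8.22 and 8.28 untreated and 8.63, 8.45 and 8.83 with NAC, without overlap. It rose by 0.48 (SE 0.15, adjusted p = 0.038), a 1.40-fold higher level. It was the only 1 of 8 members called there, against a background of 11.8% of all genes, or 6.73% called higher. That share of members is near the background. Gimap1 was lower without overlap, at 5.89 to 5.97 untreated and 5.52 to 5.87 with NAC. So was Gimap3, at 5.05 to 5.11 and 4.94 to 5.04, and neither was called. Of the 8 differences 2 were positive and 6 negative, with a median of -0.12 against 0.02 over all genes. The share of all genes without overlap was not counted, so nothing is read from the lack of overlap.

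Gimap6 was no longer called there when HRas-KO replicate 1 or 2, or HRas-KO+NAC replicate 1 or 3, was left out, with adjusted p between 0.070 and 0.18. It was lost too when all probe sets were tested (adjusted p = 0.055) and with code start as a random block (adjusted p = 0.055). The difference stayed between 0.39 and 0.58 when single arrays were left out. The difference was 0.42 ± 0.17 (adjusted p = 0.11) with the Y-linked level of each array as a covariate. The titles of the 3 HRas-KO+NAC animals do not mention NAC, and their source labels do.

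The arms also differed in sex marker levels in HRas-KO and DKO, and the part of these in the Gimap6 values was tested only through that covariate. The mean log2 level of 3 Y-linked genes, Eif2s3y, Kdm5d and Uty, ran from 3.82 to 7.26 in HRas-KO and from 7.81 to 8.07 in HRas-KO+NAC. Xist, the RNA of the inactive X, was above that level on 2 of 3 arrays and on 0 of 3. In DKO the Y-linked level ran from 3.89 to 7.67 and in DKO+NAC from 3.81 to 4.18, with Xist above it on 2 of 5 and on 4 of 4 arrays.

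With the Y-linked level as a covariate, Gimap4 differed by -1.05 ± 0.19 between DKO and Control and by 1.21 ± 0.19 between DKO+NAC and DKO. Both values rest on arrays on which Gimap4 was chosen and are given as a description. The non-additive difference of Gimap4 without treatment was -1.33 ± 0.30 in that fit. Gimap6 differed by 0.38 ± 0.14 with NAC in Control (adjusted p = 0.074).

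In Control, Gimap6 read 7.96, 8.18 and 8.25 untreated and 8.55, 8.40, 8.43 and 8.68 with NAC, again without overlap. The difference of 0.38 ± 0.14 was not called (adjusted p = 0.077, from 0.048 to 0.30 over the alternatives). In NRas-KO the NAC values of 8.54, 8.30 and 8.50 overlapped the untreated values, and the difference was 0.03 ± 0.15 (adjusted p = 0.95). In DKO they were 8.55, 8.30, 8.68 and 8.15, and the difference was 0.43 ± 0.13, given as a description.

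The Gimap6 difference in NRas-KO was smaller than that in Control by -0.35 ± 0.21 (adjusted p = 0.99), which was not called. In HRas-KO it exceeded that in Control by 0.10 ± 0.21 (adjusted p = 1.0). Genotypes were therefore not shown to differ in their Gimap6 response, although the call fell in 1 genotype.

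Over all members, NAC in Control gave 0 called of 8 while 13.5% of all genes were called, and NAC in NRas-KO gave 0 of 8 against 6.42%. In Control 2 members, Gimap6 and Gimap3, had an unadjusted p under 0.05, and in NRas-KO none did. Gimap3 differed by -0.25 ± 0.12 in Control (adjusted p = 0.17) and was called without Control+NAC replicate 2 (-0.38, adjusted p = 0.016). Gimap9 differed by 0.37 ± 0.19 in NRas-KO (adjusted p = 0.29) and was called without NRas-KO+NAC replicate 3 (0.63, adjusted p = 0.044).

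**Figure D5:**
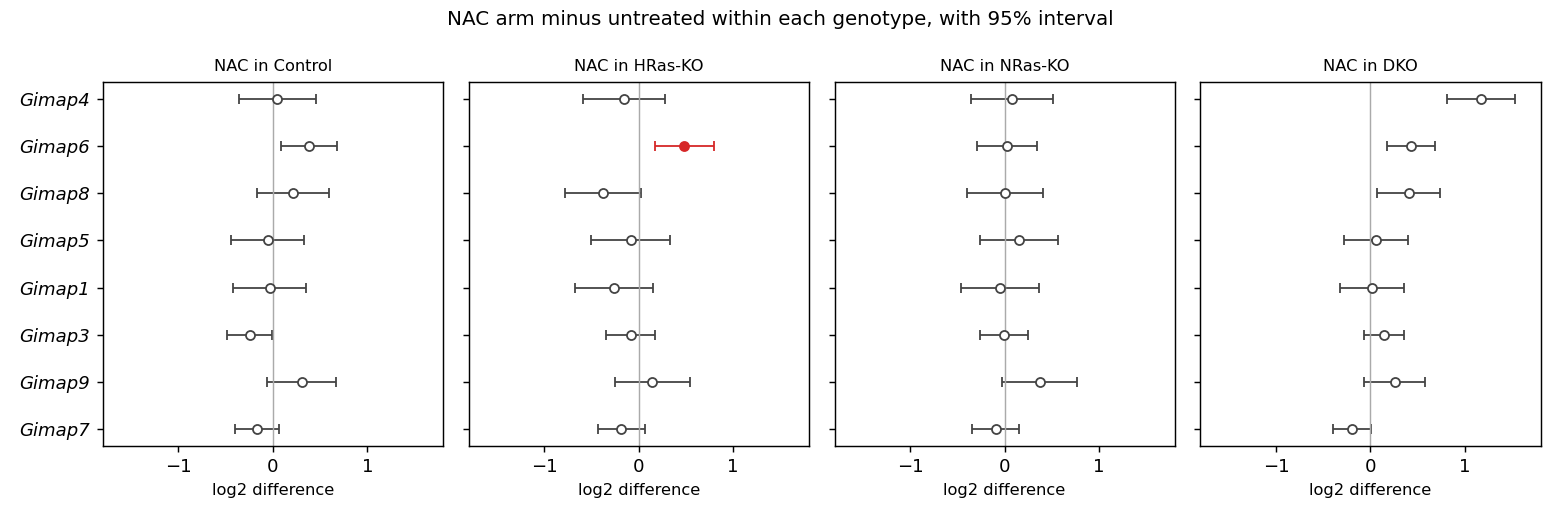
Log2 difference of the NAC arm from the untreated arm (x axis) for each member (y axis) in the 4 genotypes, with 95% intervals from limma. The filled point is the called difference, Gimap6 in HRas-KO at 0.48. Values in DKO, such as 1.17 for Gimap4, are a description and carry no call.

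Gimap8 was the member whose NAC difference varied most among genotypes outside DKO. It was 0.21 ± 0.18 in Control, -0.38 ± 0.20 in HRas-KO and 0.01 ± 0.20 in NRas-KO. The HRas-KO value less the Control value was -0.59 ± 0.27, with an unadjusted p of 0.038 and an adjusted p of 1.0. For both tests of this kind, in HRas-KO and in NRas-KO, 0 of 8 members and 0% of all genes were called.

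Gimap9 was spread more widely in the NAC arm than untreated. With NAC it read 4.71, 4.09, 4.08 and 3.79 in Control, 3.98, 3.64 and 3.95 in HRas-KO, 4.16, 4.60 and 3.61 in NRas-KO and 4.16, 4.21, 4.03 and 3.66 in DKO. Its 6 values under code start T453 ran from 3.61 to 3.98 and the other 8 NAC values from 4.03 to 4.71. Gimap4 split the same way, at 7.29 to 7.83 under T453 and 7.86 to 8.37 elsewhere.

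T453 held animals of all 4 genotypes, including all 3 HRas-KO+NAC animals. The other 6 members overlapped between T453 and the rest of the NAC arm. The share of all genes that split in this way was not counted, so nothing is read from the count of members. For Gimap6 these ranges were 8.15 to 8.83 and 8.30 to 8.68.

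Counts of 3 lists are given beside Gimap6, where 13.5% of all genes were called with NAC in Control and 11.8% in HRas-KO. Of 17 autophagy genes, 2 were higher and 5 lower in Control, and 3 were higher and 3 lower in HRas-KO. Ulk1, the kinase that starts autophagy, differed by -0.84 ± 0.13 in Control (adjusted p = 1.1e-04) and -0.75 ± 0.14 in HRas-KO (adjusted p = 7.1e-04). Atg12, a ubiquitin-like conjugation protein, differed by 0.66 ± 0.12 in Control (adjusted p = 4.2e-04) and 0.53 ± 0.12 in HRas-KO (adjusted p = 0.0059).

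Blood endothelial genes that were called with NAC were mostly lower, with 1 higher and 6 lower of 26 in Control and 7 lower in HRas-KO. Vwf, the von Willebrand factor gene, differed by -0.73 ± 0.13 in Control (adjusted p = 3.7e-04) and -0.54 ± 0.13 in HRas-KO (adjusted p = 0.0086). Pan-leukocyte genes split, with 1 higher and 2 lower of 10 in each genotype. Both genotypes had Cd53 higher, at 0.59 ± 0.16 (adjusted p = 0.015) in Control and 0.66 ± 0.17 (adjusted p = 0.012) in HRas-KO.

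The flanking genes Tmem176b and Tmem176a differed in the opposite direction to Gimap6 with NAC in HRas-KO, as did 6 of the 8 members. Their differences were -0.55 ± 0.15 (adjusted p = 0.019) and -0.60 ± 0.19 (adjusted p = 0.039). They were the 2 of 11 flanking genes called there, where 11.8% of all genes were called.

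Members were also set against each other over the 28 arrays, which share groups, code starts and normalization. Gimap4 was most like Gimap8 (Pearson r = 0.68 over levels, 0.47 over deviations from group means) and then Gimap6 (0.51 and 0.10). Once group means were removed, Gimap5 and Gimap9 (0.61), Gimap1 and Gimap5 (0.58) and Gimap4 and Gimap5 (0.57) were the closest pairs. Gimap6 was at or below 0.10 with each other member over deviations.

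The log2 value of Gimap4 less that of Gimap8 on the same array averaged 1.31 ± 0.27 (SD, n = 3) in Control, 0.56 ± 0.29 (n = 5) in DKO and 1.33 ± 0.28 (n = 4) in DKO+NAC. Gimap4 less Gimap6 averaged -0.37 ± 0.30 in Control, -1.28 ± 0.52 in DKO and -0.54 ± 0.26 in DKO+NAC. The DKO range of 0.14 to 0.96 for Gimap4 less Gimap8 lay below the Control range of 1.15 to 1.63.

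The genes outside the family with levels most like Gimap4 over the 28 arrays were Pde5a (r = 0.84), Rap2a (0.84) and Nexn (0.84), followed by Snapc5, Ankrd40, Rab8a, Jcad, Hnrnpa2b1, Tpm1 and Ufsp2 (down to 0.81). Pde5a, a cyclic GMP phosphodiesterase gene, averaged 10.28 in Control, 9.60 in DKO and 10.36 in DKO+NAC. Nexn, an actin-binding protein gene, averaged 8.85 in Control, 7.58 in DKO and 8.45 in DKO+NAC. Both were picked for likeness to Gimap4 on these same arrays. A lower mean in DKO than in DKO+NAC therefore follows largely from that choice. By deviations from group means the list was led by Gnb1l (0.86), Snapc1 (0.84), B4galt4 (0.83) and Cog6 (0.83). The endothelial genes Clec1a (0.83) and Erg (0.83) came next, followed by Olfr412, Pigu, Ccs and Pde6d (down to 0.79).

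Lists were compared with Gimap4 in the same manner, as description over 28 arrays. Because Gimap4 was chosen as low in untreated DKO, r over levels partly follows from how each list stood in DKO. The mean of the interferon-inducible and septin-like GTPases had r = 0.72 over levels and 0.52 over deviations. The pan-leukocyte mean had 0.57 and 0.52, the blood endothelial mean 0.10 and 0.51, and the T cell mean 0.24 and -0.14. The alveolar type 2 mean had 0.50 and 0.51. Lists with negative values over levels included the erythroid mean, at -0.67 and -0.08, and the small structural RNA mean, at -0.61 and -0.12. Gimap3 was the member with the highest value against the T cell mean, 0.69 by both measures.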

How the data were processed

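RNA of 28 lungs was hybridised to 1-colour Affymetrix arrays. The authors deposited log2 values per probe set; the submitters' processing notes name RMA and affy. Their versions, and whether normalization covered all arrays at once, are not given in the sources used here. Precision is limited by how many arrays there were.

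By the platform annotation, 23521 of 41345 probe sets carried 1 symbol. The brightest stood for each of 22180 genes. A model of 8 group means over the 28 arrays was fitted with limma 3.58.1 (R 4.3.3; 20 residual and 5.95 prior degrees of freedom), with Benjamini-Hochberg adjustment over all genes. The script was tested on simulated data. Of 19 comparisons, 16 were tested and 3 only described, because they chose Gimap4.

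Groups followed the source labels: a shared treatment note names 3 samples as NAC, the labels 14. Whether animals of a group were littermates is not stated. The main fit treated the 28 arrays as independent, so its p-values may be too small if animals of a group shared litters. Replicate numbers did not pair arrays (37 same-number pairs had a mean correlation of 0.02, with 13 over 0.1). Arrays that shared a code start had a mean correlation of 0.15 (15 of 28 pairs over 0.1), against -0.035 between code starts.

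The members, 21 gene lists (258 of 289 genes measured) and tests were chosen with earlier results of these data known. All members were named, with Nras, up to 4 genes with the smallest p in DKO against Control or NAC in Control of each list, and 10 genes by Pearson correlation with Gimap4. Sftpc, Cdh5, Pecam1, Ptprc, Cd3e and the flanking genes were named beside that rule. Promoters came from RefSeq (GRCm38.p6).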

Additional observations from a re-analysis of the deposited data

Results flagged for a closer look

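Gimap4 in the array labelled DKO+NAC replicate 4 stood at a log2 value of 7.29, apart from the other 3 arrays of its group at 8.07 to 8.10. Nras was also high on this array.

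Gimap4 in Control+NAC replicate 4 stood at 7.63, apart from the other 3 arrays of its group at 7.86 to 7.88.

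Both animals carried the code start T453. They gave the 2 cases past the limit among 24 combinations of a member and a group of 4 or 5 arrays. Chance alone gives about 1 such case in 20 independent combinations. The 24 combinations share arrays and are not independent, so nothing is read from that rate.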

How the results depend on the processing

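Of 808 alternative values of the counts and described differences, 785 stayed close to the reported value and 23 moved. Of 336 values of single members, 320 kept their call, 9 lost it and 7 gained it. None changed sign. Many of these values had little or no room to move. Where limma called 0% of all genes, as in HRas-KO against Control, the count of members was 0 in every alternative. Leaving out an array of a group outside a comparison cannot change its log2 difference, only its SE. The share of values that stayed close is therefore not read as a measure of robustness. With the 5 arrays of highest skeletal muscle level left out, a choice made after seeing the data that leaves fewer arrays, the count of called members was 0 in DKO against Control, 0 in DKO against NRas-KO and 1 in NAC in Control, and the non-additive Gimap4 difference was -1.01. Without DKO replicates 1 and 3, also chosen after seeing the data, NAC in Control had 1. DKO against HRas-KO had 2 called members without the dimmest 40% of genes and with array weights (Gimap8 added). DKO against NRas-KO had 2 with quantile normalization again, array weights and the replicate block (Gimap6 added). NAC in HRas-KO had 0 with all probe sets tested, with code start as a random block and with the Y-linked level as a covariate, which was added after seeing the data. The cause was not tested.

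Leaving out each array in turn gave 1 to 2 called members in DKO against HRas-KO and against NRas-KO, and 0 to 1 in NAC in Control, HRas-KO and NRas-KO. The described Gimap4 differences ran from -1.42 to -1.19 (non-additive), 1.07 to 1.37 (NAC in DKO) and 1.03 to 1.33 (that less NAC in Control). With the replicate block, genes called in DKO against Control numbered 570, against 850 without it, and the block changed the count of members only in DKO against NRas-KO, among the 16 comparisons tested. Among all genes that count was 122 with only the groups compared, 213 without the 5 muscle arrays and 614 with code start as a random block. The dimmest-genes filter left 5 members measured.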
